A study of Mus musculus with 6 samples.

Results

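A set of 44 interferon-response genes was followed across 3 treatments of NMuMG cells, a line of epithelial cells from normal mouse mammary gland. The genes were chosen by name, as known targets of interferon, and all 44 were found among the 18512 entries of the gene count table. The cells had been serum-starved and were then given the vehicle DMSO, 5 ng/ml of TGF-β, or that dose of TGF-β together with 50 uM of 2APB. The authors describe 2APB as a modulator of store-operated calcium entry that blocks some ORAI channels and raises calcium influx through ORAI3. The RNA of 2 biological replicates per group, taken after 24 h, was sequenced, which gave 6 libraries of a single cell line with no 2APB-only group. The experiment asked how TGF-β changed gene expression in these cells and how 2APB altered that response.

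Interferons are secreted when a cell detects viral nucleic acid. Type I interferon acts through its receptor, JAK kinases and transcription factors, STAT2 and IRF9 among them, which bind the interferon-stimulated response element in front of antiviral genes. Interferon-γ acts at the gamma-activated site, and induces guanylate-binding proteins and the antigen presentation machinery of MHC class I. Most cells, epithelial cells included, keep a low level of this programme without infection, and leukocytes keep a higher one.

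The promoters of these genes, chosen as known targets of interferon, were searched for the letters of both sites. A raised share of matches may follow from that choice. RefSeq windows (mouse genome GRCm38.p6) of 300 bases, from 250 before to 50 after the transcription start, were found for 36 of the 44 genes. No window was used for Dhx58, Oas2, Mx1, Mx2, Rtp4, Usp18, Parp9 and Parp14. The core of the response element, GAAA followed after any 2 bases by GAAA, on either strand and with overlapping matches allowed, was present in 18 of the 36 genes (50%), against 3.99% of all 27025 genes with a window. The letters of the gamma-activated site, TTCNNNGAA, which read the same on both strands, were present in 12 of the 36 genes (33.3%), against 9.55% of all genes. The 250 bases before the start are given here for 3 genes that had lower counts with TGF-β (Ifit1, Ifit3, Gbp3) and for 3 that had higher counts (Irgm1, B2m, Isg20), 5′ to 3′ on the strand of the gene, with matches to this core or its reverse complement in capitals. Of the 2 windows of Gbp3, the one with most matches is given. The fall of Gbp3 was not called with all libraries (edgeR FDR = 0.144). These genes are examples: of the tested genes called lower with TGF-β, 5 held the core in their window and 7 had a window without it.
Ifit1, chr19:34640639-34640888, plus strand: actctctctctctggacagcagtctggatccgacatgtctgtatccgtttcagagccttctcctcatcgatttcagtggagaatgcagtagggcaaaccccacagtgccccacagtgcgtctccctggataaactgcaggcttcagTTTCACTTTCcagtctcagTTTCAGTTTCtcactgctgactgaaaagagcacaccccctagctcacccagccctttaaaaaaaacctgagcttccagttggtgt
Ifit3, chr19:34583279-34583528, plus strand: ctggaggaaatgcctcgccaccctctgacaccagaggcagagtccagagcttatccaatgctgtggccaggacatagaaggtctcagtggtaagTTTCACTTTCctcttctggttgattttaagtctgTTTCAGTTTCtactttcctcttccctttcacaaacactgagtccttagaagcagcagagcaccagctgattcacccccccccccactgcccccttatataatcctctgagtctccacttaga
Gbp3, chr3:142559794-142560043, plus strand: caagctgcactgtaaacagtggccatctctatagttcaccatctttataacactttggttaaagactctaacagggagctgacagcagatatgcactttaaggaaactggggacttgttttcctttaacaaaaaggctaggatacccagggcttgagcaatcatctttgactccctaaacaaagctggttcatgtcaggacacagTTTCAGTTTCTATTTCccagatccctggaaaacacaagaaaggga
Irgm1, chr11:48871421-48871670, minus strand: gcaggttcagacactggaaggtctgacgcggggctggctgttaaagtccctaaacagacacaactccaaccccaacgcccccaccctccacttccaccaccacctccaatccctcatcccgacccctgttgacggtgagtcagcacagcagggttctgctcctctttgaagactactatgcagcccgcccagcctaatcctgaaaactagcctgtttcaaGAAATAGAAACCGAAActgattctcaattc
B2m, chr2:122147437-122147686, plus strand: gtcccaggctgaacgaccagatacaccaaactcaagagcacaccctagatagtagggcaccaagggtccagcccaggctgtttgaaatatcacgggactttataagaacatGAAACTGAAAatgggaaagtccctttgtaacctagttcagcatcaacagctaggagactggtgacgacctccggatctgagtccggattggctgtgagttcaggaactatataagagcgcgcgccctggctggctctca
Isg20, chr7:78913174-78913423, plus strand: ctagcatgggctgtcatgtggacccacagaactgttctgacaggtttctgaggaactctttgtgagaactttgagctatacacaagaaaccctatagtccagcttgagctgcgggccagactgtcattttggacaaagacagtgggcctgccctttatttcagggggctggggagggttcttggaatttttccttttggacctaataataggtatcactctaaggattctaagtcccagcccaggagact

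Ifit1 and Ifit3 each held 2 separate matches, between 104 and 76 bases and between 156 and 113 bases before the start. In Gbp3 and in Irgm1 the 2 matches overlapped, and lay within 45 and 30 bases of the start. B2m held 1 match, 139 bases before the start. Isg20 held none in any of its 3 windows, of which the first is shown, but had the letters of the gamma-activated site 73 bases before the start. A match is a description of the letters and not a site of binding.

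Total counts ran from 71840570 to 79473182 per library, and the 44 genes took between 0.0991% and 0.122% of them. The counts are those assigned to each gene by the authors, every deposited value was even, and the lowest value above 0 was 2. Gene levels are given either as these deposited counts or as normalized counts, scaled by edgeR's TMM method to the mean library. A minimum of 20 normalized counts on average left 13353 genes, which were tested by the quasi-likelihood method of edgeR, and a gene was called where the Benjamini-Hochberg FDR over all of them was 0.05 or less. Of the 44 genes, 36 were tested, and Oas1a, Oas2, Oasl1, Mx1, Rsad2, Ifi44, Usp18 and Ifitm1 fell below the minimum. Fold changes come from the fit of all 6 libraries and are given on the log2 scale with their standard error (SE). The epithelial identity of the cells was seen in Cdh1, Krt8 and Krt18, while Epcam (52 to 158 counts) and Cldn7 (2 to 6 counts) were low in all libraries. The 4 endothelial markers summed to at most 49.3 normalized counts.

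One library stood apart. In TGF-β+2APB replicate 2, all 7 leukocyte markers of a list of 8 that were found in the table had their highest level, and they summed to 32070 normalized counts, against 520.7 in TGF-β+2APB replicate 1, 4452 and 1785 in the DMSO libraries and 1173 and 466.9 in the TGF-β libraries. Most of this sum was Lyz2, the lysozyme of macrophages and neutrophils, with 29060 counts in that library and 158 in its replicate. Itgam, an integrin of myeloid cells, had 1018 counts against 12, and Ptprc, the pan-leukocyte antigen, 752 against 36. The T cell marker Cd3e had 2 counts there and 0 in the other 5 libraries. None of the 6 leukocyte markers that could be tested was called by edgeR in any comparison, and at most 1 of them had an unadjusted p under 0.05, while DESeq2 called 1 of them higher with TGF-β+2APB than in each of the other groups. Results that rest on this library are given with and without it. In a bulk sample a different share of cells of some type and a different amount of RNA per cell cannot be told apart.

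Part of the interferon-response genes also differed between these replicates. In TGF-β+2APB, 10 of the 36 tested genes (27.8%) were at least 2-fold higher in replicate 2 than in replicate 1, against 4.36% of all tested genes, and none was 2-fold lower, against 0.599%. Isg15 and Ifitm3 are among these 10 and fell below the minimum for testing without replicate 2. Over all 44 genes the count was 17 (38.6%). In DMSO, 2 of the 36 were at least 2-fold higher in replicate 1 and 0 in replicate 2, against 1.69% and 0.719% of all tested genes. In TGF-β the counts were 4 and 2, against 1.83% and 4.62% of all. The sum of the leukocyte markers was also higher in replicate 1 of DMSO and of TGF-β. In DMSO most of this sum was Lyz2, with 3591 and 1116 normalized counts. Of the 7 markers, 1 was at least 2-fold higher in DMSO replicate 1 and 0 in DMSO replicate 2. In TGF-β these counts were 2 and 1. Of the 36 tested genes, 18 (50%) followed the order of Lyz2 in all 3 groups, higher in replicate 1 of DMSO and of TGF-β and in replicate 2 of TGF-β+2APB, against 24.3% of all tested genes. This order takes no account of size: in TGF-β+2APB the replicates differed 1.04-fold for B2m and 107-fold for Irf8, both of which followed it. The part of leukocyte RNA in these values was not tested.

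**Figure D1:**
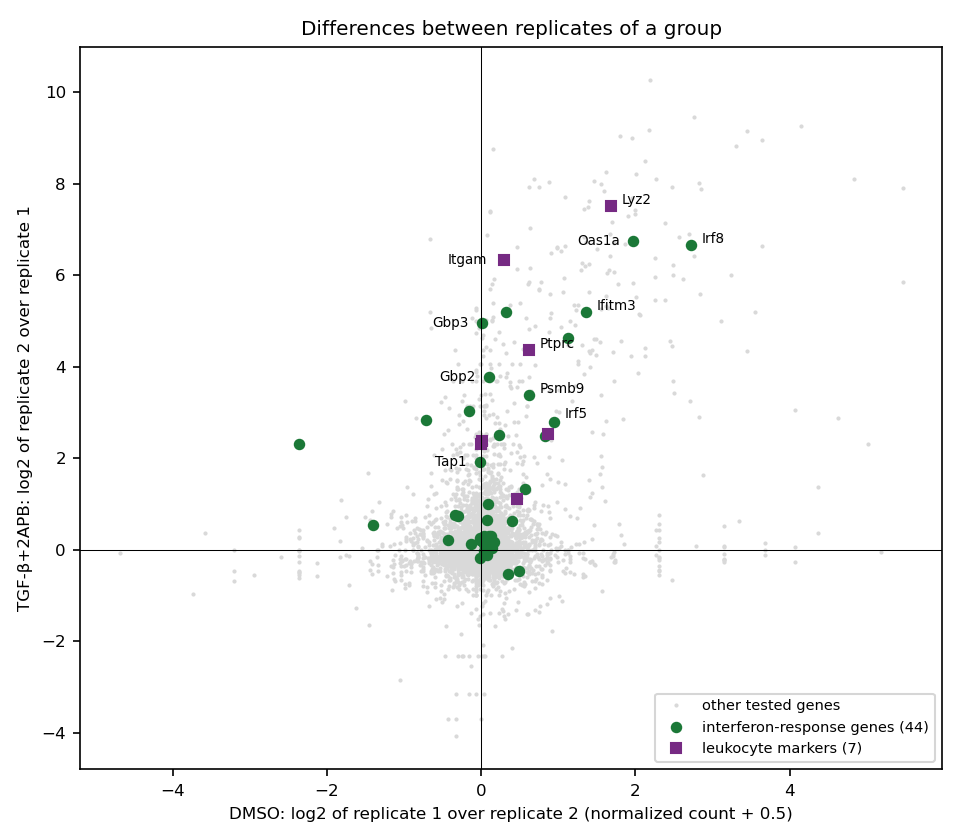
Log2 ratio of the replicates in TGF-β+2APB (vertical axis, replicate 2 over replicate 1) against that in DMSO (horizontal axis, replicate 1 over replicate 2), on normalized counts plus 0.5. Each point is a gene: grey for other tested genes, green for the 44 interferon-response genes, purple squares for 7 leukocyte markers. Irf8, Oas1a, Ifitm3 and Lyz2 lie to the upper right, high in TGF-β+2APB replicate 2 and in DMSO replicate 1, whereas most of the set lies near the origin.

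Levels in untreated cells spanned several orders of magnitude. Per kilobase of the longest annotated transcript, B2m, the light chain of MHC class I, was highest in DMSO with 21040 ± 848 normalized counts (SD, n = 2), followed by Ifitm2, a membrane protein that restricts viral entry, with 8409 ± 334. Irf1, a transcription factor of the interferon-γ response, followed with 4117 ± 331 and Tapbp (tapasin), which loads peptide onto class I, with 4003 ± 68.3 normalized counts per kilobase, and these did not differ beyond their spread. The order depended on the transcript length used. The longest transcripts of Irf1 and Tapbp had 2137 and 2898 bases, but the median lengths were 828 and 649. By the median length both stood above Ifitm2, whose length was 655 bases either way. Irgm1, an immunity-related GTPase, had 2117 ± 147 and Trim25, a ubiquitin ligase of RNA sensing, 1583 ± 7.38 normalized counts per kilobase. Low levels were found for Isg15, the ubiquitin-like modifier, with 34.4 ± 13.9, and for Mx1 and Ifi44 with 9.83 ± 0.768 and 0.254 ± 0.359 normalized counts per kilobase.

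**Figure D2:**
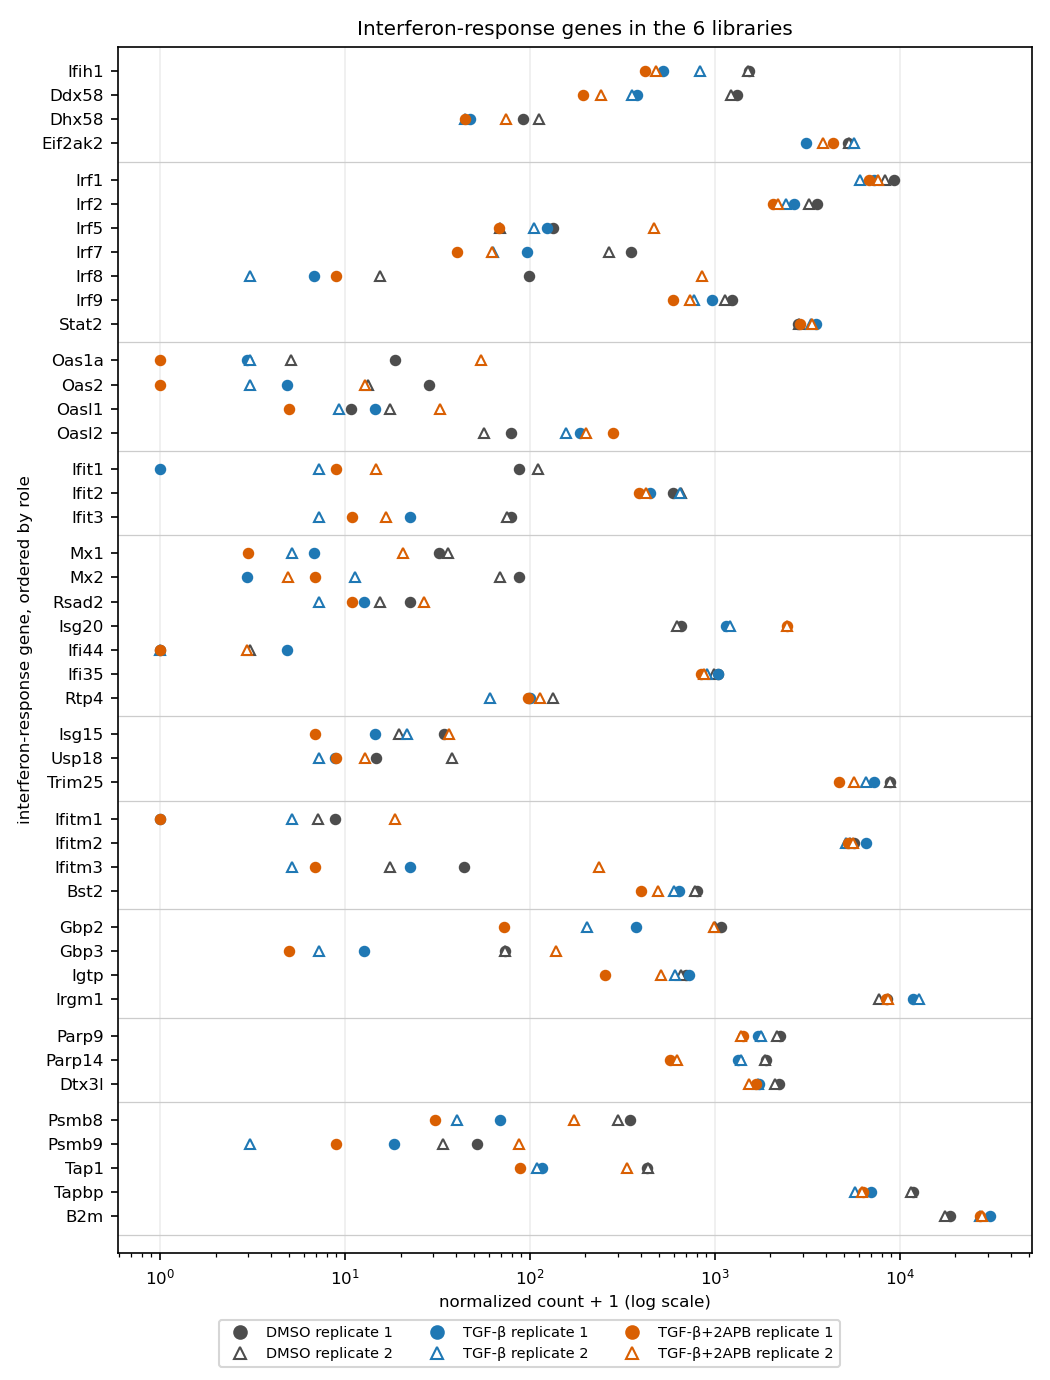
Normalized counts plus 1 (horizontal axis, log scale) of the 44 interferon-response genes (vertical axis, ordered by role) in each of the 6 libraries; filled circles are replicate 1, open triangles replicate 2, and colours the treatment. For Irf8, Ifitm3, Gbp2 and Gbp3 the TGF-β+2APB replicates lie far apart, while for Isg20, Ddx58 and Parp14 the 3 groups are separate.

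TGF-β against DMSO asked how the set responded to TGF-β. The sensor genes Ddx58, Ifih1 and Dhx58, the transcription factor gene Irf7, Ifit1, Ifit3, Mx2, and the antigen presentation genes Psmb8, Tap1 and Tapbp fell with TGF-β, whereas B2m, Isg20, Irgm1 and Oasl2 rose. By edgeR's quasi-likelihood test 16 of the 36 tested genes were called lower, against 19.7% of all tested genes, and 4 were called higher, against 21.8% of all. The median log2 fold change of the 36 was -0.46, beside -0.01 over all tested genes. The libraries of both groups did not overlap for 22 genes that were lower and 5 that were higher with TGF-β, against 36.5% and 36% of all tested genes. The count dropped whichever DMSO library was left out, as did the share of all tested genes. Without DMSO replicate 1 the count was 3 lower (9.66% of all) and without DMSO replicate 2 it was 4 lower (10.4% of all). The medians of the set were then -0.357 and -0.478. In these fits the remaining DMSO library was assumed to vary like the other groups. The SD of the log2 replicate difference was 0.37 in DMSO, 0.61 in TGF-β and 0.83 in TGF-β+2APB. Whether the drop came from the library left out or from the spread of the other groups was not tested. Without TGF-β+2APB replicate 2, 14 genes were called lower (17.2% of all) and 4 higher (19% of all). Genes listed as markers of other cell types also differed between these groups. The liver-type markers Alb, Apoa1, Fga and Ttr summed to 61320 and 54820 normalized counts in the DMSO libraries and to 249.3 and 105.8 in those with TGF-β, and 4 of 4 were called lower, with a median log2 fold change of -9.13. Of the 6 tested leukocyte markers 5 had a negative fold change, with a median of -1.08 on the log2 scale, and none was called by edgeR. Whether these marker genes changed within the cell line or reflect other cells was not tested, nor was their relation to the changes of the set.

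TGF-β+2APB against TGF-β asked what 2APB added. Ddx58, Parp14, Parp9 and Irgm1 fell and Isg20 rose, while most of the set was not called. The count was 4 lower, against 10.9% of all tested genes, and 1 higher, against 6.58% of all, with a median log2 fold change of -0.099 beside -0.004 over all tested genes. The groups did not overlap for 14 genes that were lower and 4 that were higher with 2APB, against 31% and 27% of all. Both TGF-β+2APB libraries decided this comparison: without replicate 1 it gave 7 higher (3.61% of all) and 1 lower (3.77%), and without replicate 2 it gave 1 higher (3.23%) and 4 lower (6.32%), of which Ddx58 and Parp14 were called with all libraries. The lower count was 1 without DMSO replicate 1 (3.83% of all), 1 without DMSO replicate 2 (3.72%), 7 without TGF-β replicate 1 (15.2%) and 8 without TGF-β replicate 2 (21.9%), which also gave 3 higher (18.4%).

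TGF-β+2APB against DMSO compared the combined treatment with untreated cells and shares its libraries with the comparisons above. Ddx58, Ifih1, Irf7, Ifit1, Ifit2, Ifit3, Mx2, Trim25, Bst2, Parp9, Parp14 and Dtx3l were lower and Isg20, Oasl2 and B2m higher. The test called 15 genes lower, against 27.2% of all tested genes, and 3 higher, against 25.6%, with a median log2 fold change of -0.644 beside -0.003 over all tested genes. The groups did not overlap for 23 lower and 4 higher genes, against 43.8% and 42.3% of all. Without TGF-β+2APB replicate 2 the count was 19 lower (21.2% of all) and 3 higher (18.9%), and the median of the genes then tested was -0.93. It was 9 lower without DMSO replicate 1 (17.2%), and 6 higher without TGF-β+2APB replicate 1 (18.4%), when Irf5, Irf8 and Ifitm3 were called higher.

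**Figure D3:**
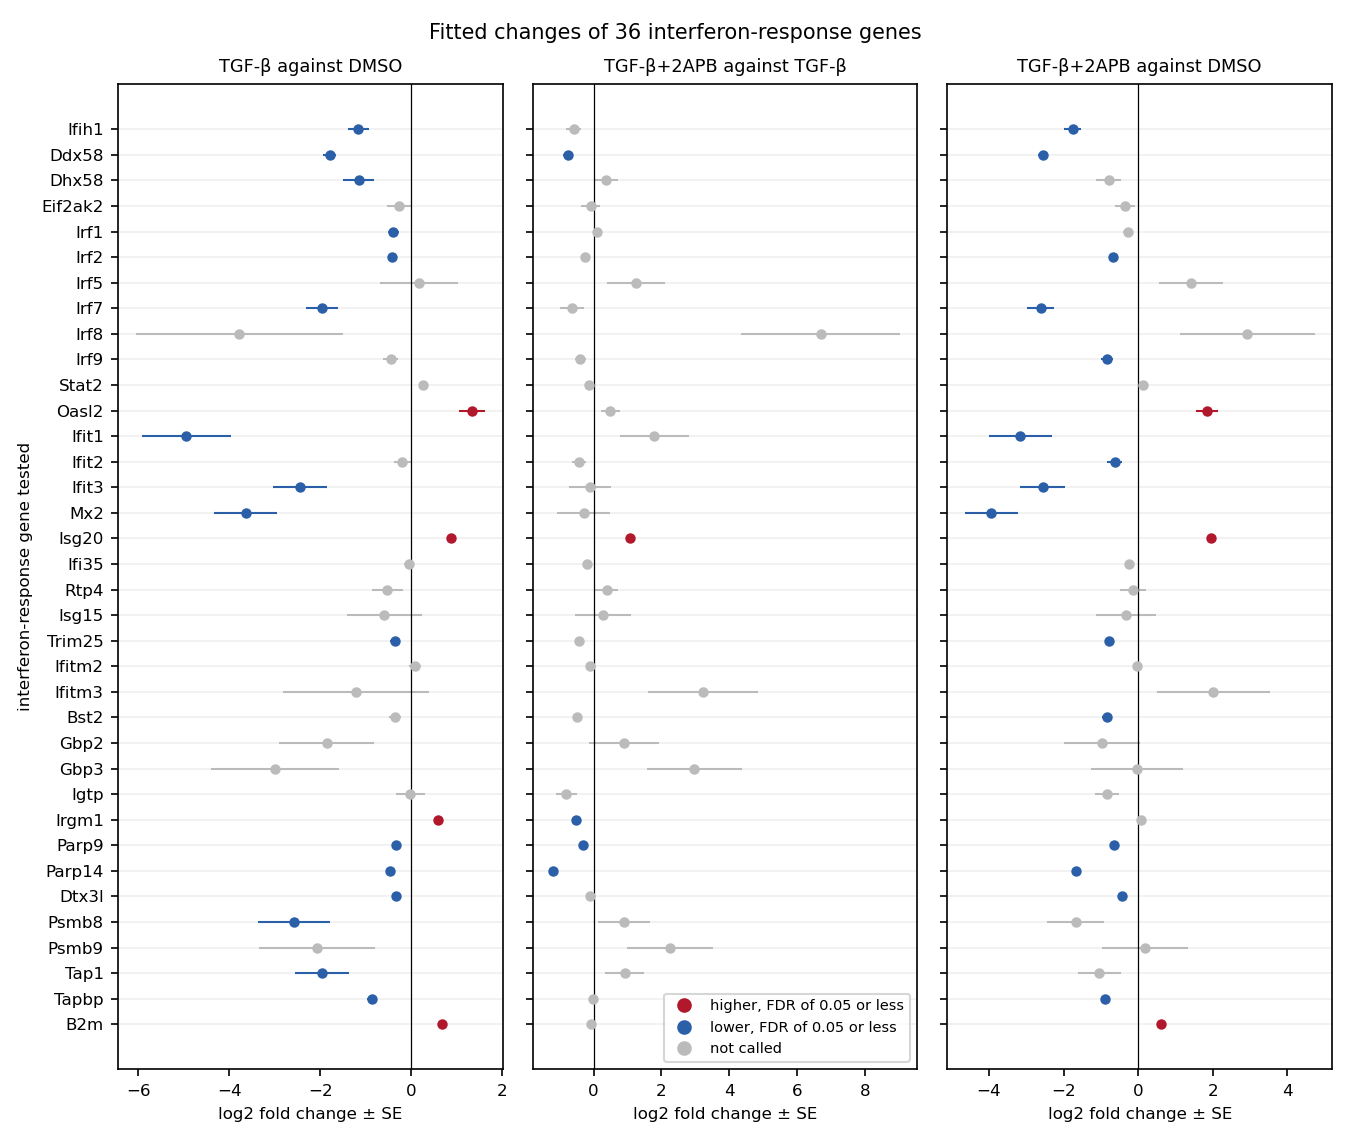
Log2 fold changes (horizontal axes) with their SE for the 36 tested interferon-response genes (vertical axis) in the 3 comparisons, from 1 fit of 6 libraries; red and blue points were called higher and lower at an FDR of 0.05 or less, grey points were not called. Blue and red points number 16 and 4, 4 and 1, and 15 and 3 in the panels, beside 19.7% and 21.8%, 10.9% and 6.58%, and 27.2% and 25.6% of all tested genes called lower and higher.

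Sensors of viral RNA fell with TGF-β. Ddx58 (RIG-I, the sensor of RNA with a free triphosphate end) had 1340 and 1188 counts in the DMSO libraries, 388 and 344 after TGF-β, and 196 and 244 after TGF-β+2APB. Its 3 groups did not overlap. The log2 fold change was -1.79 ± 0.14 with TGF-β (edgeR FDR = 4.15e-04) and a further -0.76 ± 0.14 with 2APB (edgeR FDR = 0.0202), a 5.85-fold difference between TGF-β+2APB and DMSO. Ifih1 (MDA5, the sensor of long double-stranded RNA) had 1556 and 1464 counts under DMSO, 538 and 804 under TGF-β and 424 and 488 under TGF-β+2APB. It was 2.24-fold lower with TGF-β (edgeR FDR = 0.00955) and 3.38-fold lower with TGF-β+2APB (edgeR FDR = 0.0016) than in DMSO, and the step between TGF-β and TGF-β+2APB was not called (edgeR FDR = 0.132). Dhx58 (LGP2, a helicase that modulates both sensors) had 92 and 108, 48 and 42, and 44 and 74 counts in the same order of groups. Its fall with TGF-β was near the threshold (edgeR FDR = 0.0438), and that with TGF-β+2APB was not called (edgeR FDR = 0.105). From TGF-β+2APB replicate 1 alone the log2 fold change against DMSO was -1.189, beside -0.792 with all libraries. Eif2ak2 (PKR, the kinase that halts translation on double-stranded RNA) ranged from 3188 to 5442 counts, with both extremes in TGF-β, and was called in no comparison.

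Among the transcription factors, Irf7, which drives the amplification of type I interferon, fell the most of those called. It had 358 and 258 counts under DMSO, 98 and 60 under TGF-β and 40 and 62 under TGF-β+2APB. Both treated groups lay below DMSO, with log2 fold changes of -1.97 ± 0.35 (edgeR FDR = 0.00712) and -2.62 ± 0.36 (edgeR FDR = 0.00198), whereas the step between the treated groups was not called (edgeR FDR = 0.258). Irf2, an antagonist of Irf1, fell by less, from 3618 and 3142 counts in DMSO to 2746 and 2346 after TGF-β and 2090 and 2226 after TGF-β+2APB, and was called against DMSO in both (edgeR FDR = 0.0138 and 0.00165). Irf9, the DNA-binding partner of STAT2, was 1.80-fold lower with TGF-β+2APB than in DMSO (edgeR FDR = 0.00673), with 596 and 742 counts against 1266 and 1100. Its fall with TGF-β alone was not called (edgeR FDR = 0.0685). Irf1 fell 1.31-fold with TGF-β (edgeR FDR = 0.0452), a call that was lost without TGF-β+2APB replicate 2 (edgeR FDR = 0.0883). Stat2 kept 2766 to 3608 counts in all libraries and was called by edgeR in none of the comparisons, whereas DESeq2 placed its 1.20-fold rise with TGF-β at the threshold (DESeq2 FDR = 0.0474).

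Irf8, the factor of macrophage and dendritic cell development, and Irf5, which is also mainly expressed in leukocytes, followed the library that stood apart. Irf8 had 100 and 14 counts under DMSO, 6 and 2 under TGF-β and 8 and 860 under TGF-β+2APB. Irf5 had 134 and 66, 126 and 100, and 68 and 474 counts. Each had its highest value in TGF-β+2APB replicate 2, where the leukocyte markers were highest as well. Neither was called in a comparison of all libraries, with SEs of up to 2.34 for Irf8 on the log2 scale, although DESeq2 called Irf8 higher with TGF-β+2APB than with TGF-β (DESeq2 FDR = 0.00609). Without that library the fold change against DMSO changed sign, from 2.92 to -2.79 for Irf8 and from 1.42 to -0.55 for Irf5 on the log2 scale, and was again not called (edgeR FDR = 0.155 and 0.392). The part of leukocyte RNA in both was not tested.

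The IFIT proteins, which bind viral RNA and block its translation, are encoded side by side at chr19:34550694-34650009. Ifit1 had 88 and 106 counts under DMSO, 0 and 6 under TGF-β and 8 and 14 under TGF-β+2APB. Ifit3 had 80 and 72, 22 and 6, and 10 and 16 counts. Both treated groups lay below DMSO for these genes. With TGF-β the log2 fold change was -4.95 ± 0.98 for Ifit1 (edgeR FDR = 0.0105) and -2.45 ± 0.60 for Ifit3 (edgeR FDR = 0.022), at counts so low that the size for Ifit1 ranged from -9.63 to -3.94 over the alternative settings. With TGF-β+2APB the fold changes against DMSO were 8.93 and 5.91, both called lower (edgeR FDR = 0.0234 and 0.015). The neighbouring Ifit2 stood at 606 and 634 counts under DMSO, 460 and 622 under TGF-β and 390 and 428 under TGF-β+2APB, and was called in TGF-β+2APB against DMSO alone (1.55-fold lower, edgeR FDR = 0.0394), a call lost without TGF-β+2APB replicate 2 (edgeR FDR = 0.0848). Ifit3 has a near-identical copy, Ifit3b, and reads shared by both may have been split.

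Of the 4 genes of the oligoadenylate synthetase family in the set, Oasl2 alone was tested, and it rose. Oas1c, a family member among the further genes described below, fell in each comparison. It had 80 and 54 counts under DMSO, 190 and 150 under TGF-β and 282 and 204 under TGF-β+2APB. Both treated groups lay above DMSO, by log2 fold changes of 1.34 ± 0.29 (edgeR FDR = 0.0148) and 1.83 ± 0.29 (edgeR FDR = 0.00354). The other 3 members were near the limit of detection: Oas1a had 18, 4, 2, 2 and 0 counts in the first 5 libraries and 54 in TGF-β+2APB replicate 2. Oas2 (0 to 28 counts) and Oasl1 (4 to 32 counts) showed no level above 32, and Oasl1 too was highest in TGF-β+2APB replicate 2.

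The antiviral effectors split between a strong fall of Mx2 and a rise of Isg20. Mx2, an interferon-induced dynamin-like GTPase, had 88 and 66 counts under DMSO, 2 and 10 under TGF-β and 6 and 4 under TGF-β+2APB. It was 12.5-fold lower with TGF-β (edgeR FDR = 0.00915) and 15.3-fold lower with TGF-β+2APB (edgeR FDR = 0.00552) than in DMSO, and both calls held under every alternative in which the gene was tested. Its paralogue Mx1, not tested, had 32 and 34 counts under DMSO, 6 and 4 under TGF-β and 2 and 20 under TGF-β+2APB. Isg20, an exonuclease that degrades viral RNA, had 670 and 606 counts under DMSO, 1174 and 1168 under TGF-β and 2492 and 2506 under TGF-β+2APB. The groups were ordered without overlap and the replicates were close. The log2 fold changes were 0.88 ± 0.08 with TGF-β (edgeR FDR = 7.85e-04) and 1.07 ± 0.08 from there to TGF-β+2APB (edgeR FDR = 0.00311), and 1.94 ± 0.08 over both steps. Ifi35 (848 to 1072 counts), a leucine zipper protein, and Rtp4 (58 to 128 counts), a chaperone of receptors, were called in no comparison. Rsad2 (viperin, 6 to 26 counts) and Ifi44 (0 to 4 counts) were not tested.

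In the ISG15 system, Trim25 was the only abundant gene. It had 8972 and 8592 counts under DMSO, 7468 and 6366 under TGF-β and 4742 and 5712 under TGF-β+2APB. The fall was 1.71-fold with TGF-β+2APB (edgeR FDR = 0.00222), whereas with TGF-β alone it was 1.28-fold and near the threshold (edgeR FDR = 0.0489, and 0.0689 without TGF-β+2APB replicate 2). Isg15 ranged from 6 to 36 counts, with the TGF-β+2APB replicates at either end, and was not called. Usp18, the protease that removes ISG15, had 14 and 36 counts in DMSO and 6 to 12 in the other 4 libraries and was not tested.

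The restriction factors of the cell membrane behaved differently from each other. Bst2 (tetherin, which holds budding virus at the membrane) had 816 and 760 counts under DMSO, 660 and 580 under TGF-β and 402 and 500 under TGF-β+2APB. It was 1.78-fold lower with TGF-β+2APB than in DMSO (edgeR FDR = 0.00384), while neither single step was called (edgeR FDR = 0.0877 and 0.0642). Ifitm2 held 4948 to 6710 counts in all libraries, with a log2 fold change of 0.08 ± 0.13 with TGF-β. Of its annotated exonic bases, 40.92% are shared with another gene model on the same strand. Ifitm3 had 44 and 16, 22 and 4, and 6 and 240 counts, again with the highest value in TGF-β+2APB replicate 2, and was not called. Ifitm1 had at most 8 counts outside that library and 18 in it.

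Guanylate-binding proteins and immunity-related GTPases attack the vacuoles of intracellular pathogens. They included Gbp2 and Gbp3, which with Irf8 were among the genes most affected by the single library. Gbp2 had 1100 and 976 counts under DMSO, 382 and 196 under TGF-β and 72 and 1004 under TGF-β+2APB. Gbp3 had 74 and 70, 12 and 6, and 4 and 140 counts. In both, TGF-β+2APB replicate 1 was the lowest library of the 6, and replicate 2 lay near or above the DMSO level, in parallel with the leukocyte markers. With all libraries no fold change of either gene was called. In the fits without a TGF-β+2APB library, the one that remained was assumed to vary like the other groups. Without TGF-β+2APB replicate 2, Gbp2 fell by 1.83 ± 0.30 on the log2 scale with TGF-β (edgeR FDR = 0.00718) and was 14.4-fold lower in the remaining TGF-β+2APB library than in DMSO (edgeR FDR = 0.00197). Gbp3 fell by 2.96 ± 0.41 with TGF-β (edgeR FDR = 0.00406) and was 17.5-fold lower with TGF-β+2APB (edgeR FDR = 0.00445). Without TGF-β+2APB replicate 1 instead, Gbp2 and Gbp3 were called higher with TGF-β+2APB than with TGF-β. The direction for TGF-β+2APB thus differed between its 2 libraries, and the part of leukocyte RNA in it was not tested.

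Igtp had 708 and 636 counts under DMSO, 744 and 584 under TGF-β and 256 and 516 under TGF-β+2APB, and was called lower with TGF-β+2APB only without replicate 2, where replicate 1 stood alone and was again assumed to vary like the other groups (2.63-fold against DMSO, edgeR FDR = 0.00402, and 2.63-fold against TGF-β, edgeR FDR = 0.0179). Irgm1, by contrast, was abundant and close between replicates, with 8658 and 7466 counts under DMSO, 12082 and 12276 under TGF-β and 8518 and 8734 under TGF-β+2APB. It rose 1.51-fold with TGF-β (edgeR FDR = 0.00331) and was 1.44-fold lower with TGF-β+2APB than with TGF-β (edgeR FDR = 0.0147). Its TGF-β+2APB and DMSO libraries overlapped, with a log2 fold change of 0.07 ± 0.08 that was not called. Without TGF-β+2APB replicate 2 the return was of similar size but not called (1.46-fold, edgeR FDR = 0.0686).

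Parp14, Dtx3l and Parp9 are neighbours at chr16:35832874-35972605. Parp9 and Dtx3l encode an ADP-ribosyltransferase and its ubiquitin ligase partner that enhance interferon signalling. All 3 fell with TGF-β by little, 1.26-fold for Parp9 (edgeR FDR = 0.0156), 1.38-fold for Parp14 (edgeR FDR = 0.00848) and 1.25-fold for Dtx3l (edgeR FDR = 0.0233). Of these calls, those of Parp9 and Dtx3l were lost without TGF-β+2APB replicate 2 (edgeR FDR = 0.0695 and 0.0784). With TGF-β+2APB, Parp14 fell much further than its neighbours: it had 1936 and 1802 counts under DMSO, 1376 and 1338 under TGF-β and 576 and 634 under TGF-β+2APB. This step was a log2 fold change of -1.19 ± 0.09 (edgeR FDR = 0.00311), beside -0.33 ± 0.07 for Parp9 (edgeR FDR = 0.0347, and 0.213 without replicate 2) and -0.12 ± 0.08 for Dtx3l (edgeR FDR = 0.367). The difference between the neighbours was not tested. Exons of Parp9 and Dtx3l overlap on opposite strands by 458 bases, 9.4% of the exonic bases of Parp9, and the strand setting of the counting was not given in the sources used here.

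Genes of class I antigen presentation moved in opposite directions. B2m had 18934 and 17014 counts under DMSO, 31776 and 26024 under TGF-β and 27304 and 28402 under TGF-β+2APB, a rise of 1.60-fold with TGF-β (edgeR FDR = 0.00248) and of 1.52-fold with TGF-β+2APB (edgeR FDR = 0.0025). Tapbp fell from 11946 and 11094 counts to 7202 and 5542 after TGF-β and to 6432 and 6320 after TGF-β+2APB, by 0.86 ± 0.11 and 0.88 ± 0.11 on the log2 scale (edgeR FDR = 0.00215 and 0.00128). Neither was called for 2APB on top of TGF-β, with differences of -0.07 ± 0.09 and -0.02 ± 0.11 on the log2 scale.

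The peptide supply to class I comes from Psmb8 and Psmb9, subunits of the immunoproteasome, and from the transporter Tap1, whose genes are adjacent at chr17:34181987-34201454. Psmb8 had 354 and 288 counts under DMSO, 70 and 38 under TGF-β and 30 and 174 under TGF-β+2APB. Tap1 had 438 and 420, 118 and 104, and 88 and 338 counts. Psmb9 had 52 and 32, 18 and 2, and 8 and 88 counts, and was called in no comparison. For all 3, TGF-β lay below DMSO, and TGF-β+2APB replicate 2 was far above its replicate. Psmb8 and Tap1 were called lower with TGF-β (log2 fold changes -2.58 ± 0.80 and -1.95 ± 0.59, edgeR FDR = 0.0471 and 0.0442). Each call held in 9 of 15 alternative fits. Neither held when any DMSO or TGF-β library was left out. Without TGF-β+2APB replicate 2 these falls had nearly the same size (-2.55 and -1.93) with a lower FDR (edgeR, 0.00258 and 8.14e-04), and replicate 1 alone was 10.7-fold and 4.88-fold lower than DMSO (edgeR FDR = 0.00264 and 9.81e-04), on the assumption that it varies like the other groups. The library left out, with 174 and 338 counts, did not show a fall of that size. With all libraries neither was called in TGF-β+2APB against DMSO. The leukocyte markers were highest in the same library, and their part in these values was not tested. Psmb9 and Tap1 share 212 exonic bases on opposite strands.

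**Figure D4:**
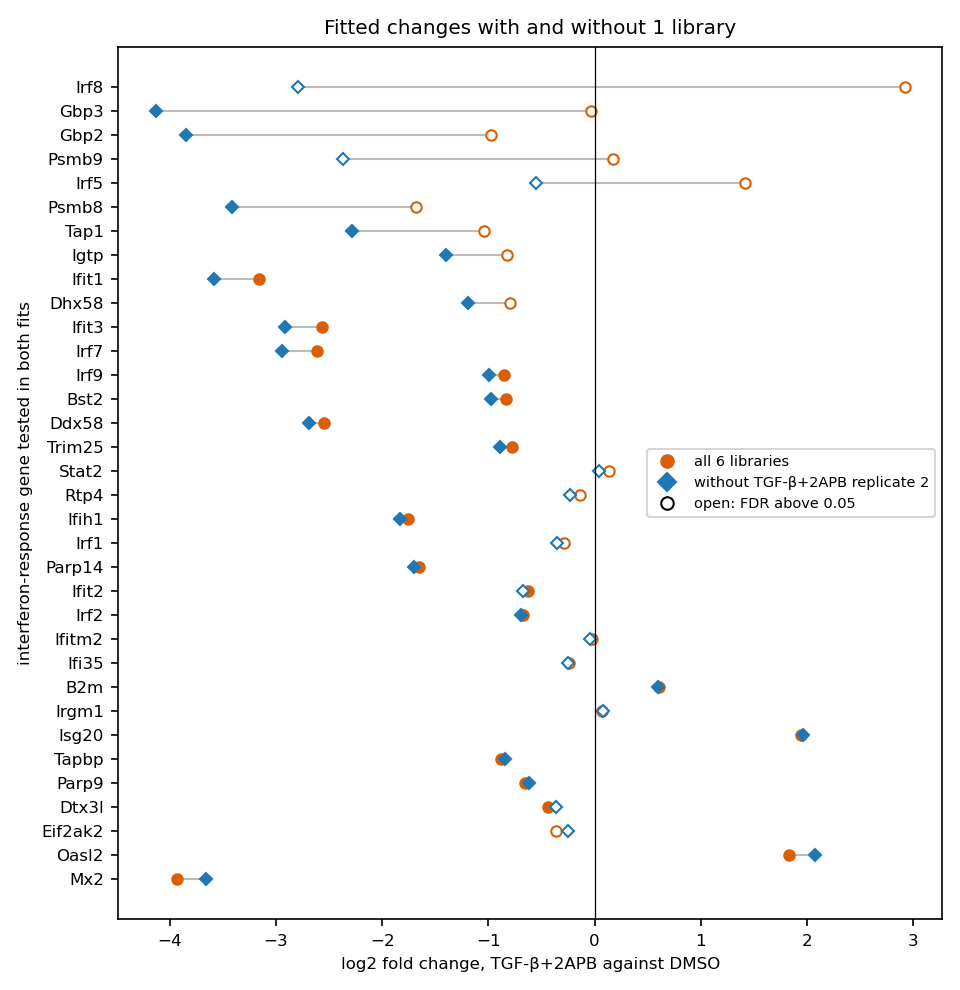
Log2 fold change of TGF-β+2APB against DMSO (horizontal axis) for the 34 interferon-response genes tested both with all 6 libraries (circles) and without TGF-β+2APB replicate 2 (diamonds), vertical axis ordered by the shift; filled symbols were called at an FDR of 0.05 or less. Irf8, Gbp3, Gbp2 and Psmb9 shift the most, whereas Isg20, B2m, Tapbp and Parp14 stay in place. The diamonds rest on TGF-β+2APB replicate 1 alone, which was assumed to vary like the other groups.

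The promoter windows can be set beside these counts, with no test of the difference. With TGF-β, of the 16 tested genes whose window held the core element 5 were called lower and 2 higher (median log2 fold change -0.505), and of the 15 with a window and no match 7 were lower and 2 higher (median -0.394), against 19.7% and 21.8% of all tested genes. For 2APB on top of TGF-β, 2 were lower and 0 higher with a match (median -0.109), and 0 lower and 1 higher without (median 0.111), against 10.9% and 6.58% of all. In TGF-β+2APB against DMSO, 6 were lower and 1 higher with a match (median -0.518), and 6 lower and 2 higher without (median -0.44), against 27.2% and 25.6% of all.

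Calls that did not depend on the settings tried were a minority for TGF-β against DMSO. Of its 20 calls, 6 held in every one of the alternative fits in which the gene was tested: Ddx58, Mx2 and Tapbp lower, and B2m, Irgm1 and Isg20 higher. For 2APB added to TGF-β, the rise of Isg20 and the fall of Parp14 held, 2 of 5 calls. Against DMSO, 13 of the 18 calls for TGF-β+2APB held: Ddx58, Ifih1, Irf2, Irf7, Mx2, Trim25, Bst2, Parp9, Parp14 and Tapbp lower, and Oasl2, Isg20 and B2m higher. Most of the calls that were lost were lost when a DMSO library was left out, but several were lost in other fits as well. With TGF-β, the calls of Irf1 and Trim25 held in 7 of 15 alternative fits, Dhx58 in 8, and Psmb8 and Tap1 in 9. Those of Dhx58, Psmb8 and Tap1 were also lost when TGF-β replicate 1 or replicate 2 was left out. With TGF-β, the edgeR FDR without DMSO replicate 1 was 0.0577 for Ifih1, 0.249 for Irf1, 0.123 for Irf2, 0.0575 for Irf7, 0.101 for Ifit3, 0.0826 for Parp14, 0.143 for Parp9, 0.177 for Dtx3l, 0.158 for Psmb8 and 0.143 for Tap1. Without DMSO replicate 2 it was 0.208 for Dhx58, 0.0588 for Ifit1, 0.0975 for Oasl2 and 0.2 for Trim25. For TGF-β+2APB against DMSO the edgeR FDR was 0.11 for Ifit1 and 0.178 for Ifit2 without DMSO replicate 2, and 0.0687 for Ifit3 and 0.0503 for Irf9 without DMSO replicate 1. For 2APB on top of TGF-β, the edgeR FDR of Ddx58 was 0.077 and 0.0767 without DMSO replicate 1 or 2 and 0.0924 without TGF-β+2APB replicate 1, and those of Irgm1 and Parp9 were 0.0809 and 0.169 without TGF-β+2APB replicate 1. The directions of these calls were the same in every fit.

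The wider interferon pathway was described with 130 further genes, of which 118 were in the table and 104 were tested. Interferon genes themselves were hardly detected: of 13 listed, 3 were in the table, with at most 4 counts in any library, and Ifnb1 had 2 counts in TGF-β+2APB replicate 1 and 0 elsewhere. At this depth no change in the ligands was detectable. Over all 104 genes, 31 were called lower and 12 higher with TGF-β (against 19.7% and 21.8% of all tested genes). For 2APB on top of TGF-β, 18 were called lower and 2 higher (against 10.9% and 6.58% of all), and with TGF-β+2APB against DMSO 47 lower and 13 higher (against 27.2% and 25.6% of all).

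Of the 6 receptor chains, Ifnar1 and Ifngr1 rose with TGF-β, and Ifngr2 and Ifnlr1 fell. Ifngr2, the signalling chain of the interferon-γ receptor, had 10978 and 9932 counts under DMSO, 4484 and 3626 under TGF-β and 2280 and 2662 under TGF-β+2APB, a fall of 1.37 ± 0.12 on the log2 scale with TGF-β (edgeR FDR = 5.36e-04) and of 2.11 ± 0.12 over both steps (edgeR FDR = 8.51e-05). Ifngr1, its ligand-binding chain, had 17690 and 16360, 26620 and 23330, and 17708 and 18200 counts, so that its rise with TGF-β was not seen with TGF-β+2APB. Ifnlr1, the receptor of interferon-λ, fell by 0.54 ± 0.12 with TGF-β and by 0.88 ± 0.12 with TGF-β+2APB against DMSO on the log2 scale. Il10rb, shared by the interferon-λ and interleukin-10 receptors, was called lower between TGF-β and TGF-β+2APB, by 0.45 ± 0.08.

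In the JAK-STAT list of 13 genes, Stat3, which serves cytokines of the interleukin-6 family, had 19172 and 17558, 13068 and 10106, and 4994 and 5786 counts, and fell in every comparison. Tyk2, a kinase of the type I receptor, fell with TGF-β by 0.52 ± 0.09, while Jak1 (0.26 ± 0.07), the phosphatase Ptpn11 (0.56 ± 0.07) and the inhibitor Cish (0.45 ± 0.08) rose. Cish rose again between TGF-β and TGF-β+2APB. Among the JAK-STAT genes called in TGF-β+2APB against DMSO alone, the inhibitor Socs3 and the phosphatases Ptpn1 and Ptpn6 were lower and the kinase Jak2 was higher.

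Of 15 tested genes of nucleic acid sensing and interferon induction, 5 were lower and 1 higher with TGF-β, against 19.7% and 21.8% of all tested genes. Tlr3, the endosomal receptor of double-stranded RNA, had 1288 and 1276 counts under DMSO, 504 and 688 under TGF-β and 450 and 492 under TGF-β+2APB. Its adaptor Ticam1 fell from 3526 and 3180 to 1488 and 1134 counts with TGF-β. Aim2, a sensor of cytosolic DNA, fell from 412 and 398 to 70 and 88 counts, and the kinase Ikbke (log2 fold change -1.04 ± 0.10) and the adaptor Myd88 (-0.51 ± 0.15) fell as well, while the adaptor Traf3 rose (0.57 ± 0.08). With TGF-β+2APB against DMSO 8 were lower, Tmem173, Tbk1 and Irf3 among them, and Traf3 was higher, against 27.2% and 25.6% of all tested genes. Ikbke alone was called between TGF-β and TGF-β+2APB, by -0.64 ± 0.10.

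Of 14 tested class I heavy chains and further presentation genes, 5 were lower with TGF-β (Tap2, H2-Q4, H2-T23, Tapbpl, Psmb10) and 2 higher (H2-T10, Pdia3), against 19.7% and 21.8% of all tested genes. The classical heavy chains H2-K1 (1064, 852, 342, 248, 248 and 1040 counts, in the order of DMSO, TGF-β and TGF-β+2APB replicates) and H2-D1 (228, 212, 114, 102, 66 and 516 counts) were again far higher in TGF-β+2APB replicate 2 than in its replicate, where the leukocyte markers were also highest, and were not called. A further 56 tested interferon-response genes gave 16 lower and 4 higher with TGF-β (against 19.7% and 21.8% of all tested genes), 11 lower and 1 higher for 2APB on top of TGF-β (against 10.9% and 6.58%), and 25 lower and 6 higher over both steps (against 27.2% and 25.6%). The largest called falls with TGF-β were those of Cmpk2 (-2.99 ± 0.56), Gbp10 (-2.66 ± 0.45) and Oas1c (-1.94 ± 0.27), and the largest rises those of Apol9b (3.18 ± 0.96), Ifi205 (2.45 ± 0.35) and Apol9a (2.33 ± 0.53), on the log2 scale. On top of TGF-β, 2APB gave the largest falls in Oas1c (-3.41 ± 0.32), Tgtp1 (-2.09 ± 0.48) and Gbp9 (-1.32 ± 0.23), and the rise was Ifi30 (1.06 ± 0.13), a lysosomal thiol reductase. With TGF-β+2APB against DMSO the largest falls were Oas1c (-5.35 ± 0.33), Gbp10 (-4.32 ± 0.50) and Gbp4 (-3.65 ± 0.89), beside rises of Apol9b (3.44 ± 0.96), Ifi205 (3.06 ± 0.35) and Apol9a (2.78 ± 0.53). Apol9a and Apol9b, and Tgtp1 and Tgtp2, are near-identical copies whose reads may have been split. The interferon-γ-induced chemokine Cxcl9 had 4 to 52 counts in 5 libraries and 514 in TGF-β+2APB replicate 2, the one with the highest leukocyte markers, and Cxcl10 had 704 and 498 counts under DMSO, 138 and 104 under TGF-β and 118 and 826 under TGF-β+2APB.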

How the data were processed

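RNA from 6 NMuMG cultures (DMSO, TGF-β, TGF-β+2APB, 2 biological replicates each) was oligo-dT selected and sequenced as single-end reads. The authors checked the reads with FastQC v0.11.2, aligned them with TopHat v2.0.13 and summarized reads per gene with featureCounts. The deposited values are raw counts, without scaling between libraries. The submitters' processing notes name the build mm10, while the methods name a human genome. All values were even, and 47.69% of those above 0 could be divided by 4. The authors' spreadsheet had turned 25 names into dates, and these entries are not named.

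The 44 genes, the pathway and marker lists and the motifs were chosen with earlier results of these data known. Counts were fitted with edgeR 4.0.16 (R 4.3.3, TMM, 3 groups, no covariates) over genes that averaged 20 or more normalized counts, with a Benjamini-Hochberg FDR of 0.05. The script was tested on simulated data. P-values measure only the spread between these cultures. Replicates differed by a biological coefficient of variation of 17.4%, totals were 71840570 to 79473182 counts, and all intervals cover the spread between replicates only. Alternatives were DESeq2 1.42.0, other scalings and filters, halved counts, a replicate block, the 4 libraries compared alone, an FDR of 0.01 and each library left out. Named genes were all 44, called genes of the ligand, receptor, JAK-STAT and sensing lists, and the 3 largest called changes among the further interferon-response genes. One called gene of these lists is not reported here. H2-K1, H2-D1, Cxcl9 and Cxcl10 were named after their values were seen. Gene positions are those of GENCODE M21 (GRCm38) and promoter sequences those of RefSeq. The timing of 2APB relative to TGF-β was not settled by the sources used here.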

Additional observations from a re-analysis of the deposited data

How the results depend on the processing

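When single libraries were left out, the number of interferon-response genes called with TGF-β against DMSO ranged from 3 to 6 higher and from 3 to 14 lower (11.1% to 29% and 9.66% to 28% of all tested genes). Between TGF-β and TGF-β+2APB it ranged from 1 to 7 higher and from 1 to 8 lower (2.55% to 18.4% and 3.72% to 21.9% of all), and with TGF-β+2APB against DMSO from 3 to 6 higher and from 9 to 19 lower (15.6% to 33.4% and 17.2% to 34% of all). At an FDR of 0.01, 6 genes were lower with TGF-β (11.8% of all) and 1 for 2APB on top of TGF-β (2.81% of all), where fitting only the 4 libraries compared also gave 1 lower (3.73% of all) and DESeq2 gave 2 higher (12.5% of all). Replicate numbers were shared by the groups, but deviations of same-numbered libraries correlated at 0.136 for DMSO and TGF-β, -0.429 for DMSO and TGF-β+2APB and -0.258 for TGF-β and TGF-β+2APB, across genes, so the numbers were not taken to pair cultures. With the replicate number as a block, 4 genes were higher and 11 lower with TGF-β (18.7% and 16.8% of all), 1 and 2 for 2APB on top of TGF-β (3.8% and 6.25% of all), and 3 and 15 for TGF-β+2APB against DMSO (23.1% and 24.5% of all). A block with the TGF-β+2APB numbers crossed, chosen after the data were seen, gave 4 and 16 (21.8% and 20.9% of all), 2 and 5 (6.97% and 11.5%), and 3 and 18 (26.3% and 27.9%). Over the alternatives, 102 values of called genes passed the threshold no longer, 578 kept direction and call, and 0 reversed. With the median in place of the longest transcript length, 32 of the 44 levels per kilobase moved beyond the SD of the replicates. The cause of these changes was not tested. With 2 libraries per group, and with even counts of which the lowest above 0 is 2, changes of genes with few counts such as Ifit1 carry wide errors.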
